A study of Xenopus laevis with 12 samples.

Results

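Intermediate filaments are the rope-like fibres of the cytoskeleton and of the nuclear lamina. Keratins form obligate pairs of a type I and a type II protein and are the filaments of epithelia, including the embryonic epidermis of the frog, where they are used as markers of non-neural ectoderm. Vimentin, nestin, peripherin and the neurofilaments serve mesenchymal and neural cells, and lamins line the inner nuclear membrane of every cell. The 50 genes described here were chosen by name from the 19252 genes found in the tables of either stage: krt followed by a digit, vim, nes, ina, nefl, nefm, nefh, prph and the lamins. The rule also covered synm and gfap, for which 0 rows were found. It used no measured value. There were 31 keratin rows, 12 rows of vimentin and neural filaments and 7 lamin rows. At stage 17 a row was present for 46 of the 50 and at stage 14 for 45, with 41 in both tables.

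The samples were neural crest tissue of wild-type Xenopus laevis embryos injected at 4 cells with a morpholino (60 ng), a synthetic antisense oligomer. Of the 12 libraries, 3 came from embryos with the miR-196a morpholino at stage 17 and 3 from embryos with the mismatch morpholino at stage 17. The same 3 and 3 were made at stage 14. Stages are those of Nieuwkoop and Faber, and all groups share the wild-type genotype and an injection. The series design places the injection in a single right dorsal cell, so the progeny of the other cells received none, and it also mentions a further control injection that was not analysed here. The batch label repeats the stage, so batch and stage cannot be told apart. Whether samples of a group came from separate clutches or pools is not given in the sources used here, and the p-values measure the spread between these samples.

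All fold changes, standard errors (SE) and adjusted p-values come from the authors' deposited tables, 1 per stage, and no value per library was used. Neither headers nor labels name the numerator arm. All comparisons between the stages assume that it is the same morpholino in both tables, which is not stated. A negative value means a lower level in the numerator arm than in the denominator arm, and signs are given as deposited. The level in each arm was computed from the deposited mean normalised count and fold change for arms of equal size. These counts are not divided by transcript length, so they describe reads, not molecules, and they give no order of abundance between genes. The tables of the stages were normalised separately, so levels of 1 stage are set against the other only as a description. The floor was set at 3 normalised counts per arm. With 1 arm at the floor, a fold given as "at least" is the fitted level of the other arm over 3. It leaves out sampling error. A gene was called when its adjusted p-value was under 0.05. Shares of all genes tested at a stage are over the genes with an adjusted p-value analysed here. At stage 17 the authors' adjustment covered 22197 genes, more than those analysed here. Xenopus laevis is allotetraploid and most genes exist as a copy on a long chromosome (.L) and a copy on a short chromosome (.S). Reads of near-identical copies and of tandem keratin genes may be shared out in ways that cannot be seen here, so values of a single copy are less certain.

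The tissue label was checked against neural crest markers. All 19 rows of that list were above the floor as a mean over both arms, with mean normalised counts of at least 350 at stage 17 and at least 22.0 at stage 14. This does not show each marker above the floor in each arm. For sox10.S at stage 14 the mean was 112 and the log2 fold change -7.31 by the authors' deposited table. The levels of the 19 rows summed to 46411 in the numerator arm and 95390 in the denominator arm at stage 17, and to 5251 in the numerator arm and 36439 in the denominator arm at stage 14. In the same libraries the mean normalised count of the epidermal keratin krt70.S was 55121 for stage 17 and 48806 for stage 14 by the authors' deposited tables. The dissected tissue thus held RNA of epidermal keratins beside that of neural crest markers. In bulk tissue, fewer cells of a type and less RNA per cell cannot be told apart.

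The summed keratin level was lower in the numerator arm at both stages. Summed over all keratin rows, the level was 129761 normalised counts in the numerator arm and 329422 in the denominator arm at stage 17, 2.54-fold lower in the numerator arm. At stage 14 the sums were 53959 in the numerator arm and 335184 in the denominator arm, 6.21-fold lower in the numerator arm. Most of each sum came from krt70.S, krt7.L and krt7.S. In the denominator arm these rows held 76822, 69312 and 67528 at stage 17 and 80690, 74281 and 69624 at stage 14. As a share of all counts in the table, keratins made up 0.865% of the numerator arm and 2.29% of the denominator arm at stage 17. At stage 14 the shares were 0.325% of the numerator arm and 1.99% of the denominator arm. The denominator arms of the stages thus had similar keratin shares, while the numerator arms differed.

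Of the 22 keratins with an adjusted p-value at stage 17 by the authors' deposited table, 9 were called, all negative, where 5.0% of all 16965 genes tested were called negative. At stage 14 it was 11 of 21, again all negative, where 5.62% of all 17088 genes tested were called negative. Over the keratins with a p-value by the authors' deposited tables, the median log2 fold change was -1.20 at stage 17 and -3.07 at stage 14, beside medians of 0.01 and 0.02 over all genes with a p-value. Over all intermediate filament genes with a p-value the medians were -0.54 and -0.94. Among all 36 members with an adjusted p-value at stage 17, 13 were called, 11 negative and 2 positive, where 9.96% of all genes were called. At stage 14 it was 12 of 37, with 11 negative and 1 positive, where 8.68% were called. The other 10 and 8 members had no adjusted p-value by the authors' deposited tables.

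**Figure D1:**
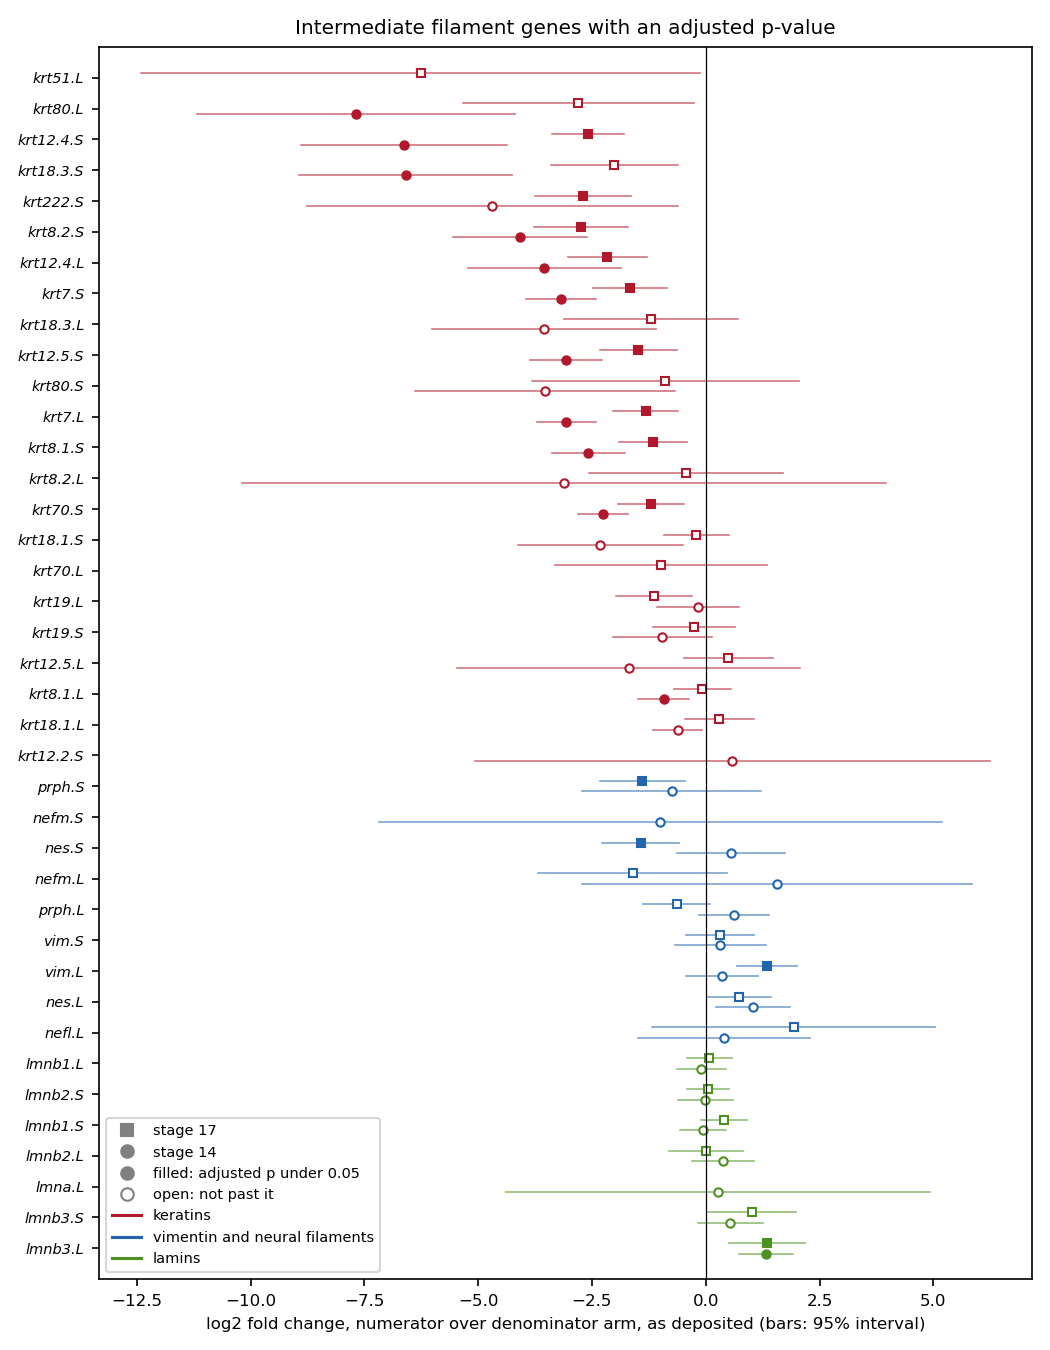
Log2 fold change (x axis, numerator over denominator arm, as deposited) of each intermediate filament gene with an adjusted p-value (y axis), with squares for stage 17, circles for stage 14, bars for the 95% interval from the SE, and filled symbols for adjusted p under 0.05. Every filled keratin symbol is left of 0, with 9 at stage 17 and 11 at stage 14, while lmnb3.L at both stages and vim.L at stage 17 are the filled symbols right of 0. The fitted values of krt51.L at stage 17 and of krt80.L, krt18.3.S and nefm.S at stage 14 have an arm at the floor.

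Of the type I keratins of the embryonic epidermis, krt12.4.L, krt12.4.S, krt12.5.S and krt70.S were called negative at both stages, and krt12.5.L and krt70.L at neither. At stage 14 krt70.L had no p-value and so could not be called. The krt12.4 gene encodes the epidermal keratin listed in RefSeq under the older names EpK and E-keratin, a standard marker of non-neural ectoderm in Xenopus. Its .S copy had 4021 normalised counts in the numerator arm and 24128 in the denominator arm at stage 17, a 6.0-fold lower level (95% interval 3.45 to 10.4). At stage 14 the numerator arm held 149.5 and the denominator arm 14849, a 99.3-fold lower level with a wide interval of 20.7 to 476. In the authors' deposited tables the log2 fold change of krt12.4.S was -2.59 (with SE 0.41 and adjusted p = 4.40e-08) at stage 17 and -6.63 (with SE 1.15 and adjusted p = 7.99e-07) at stage 14. The .L copy moved the same way, with 2426 normalised counts in the numerator arm and 10846 in the denominator arm at stage 17 and 561 and 6554 at stage 14. For krt12.4.L the authors' deposited tables gave -2.16 (with SE 0.44 and adjusted p = 5.40e-05) and -3.55 (with SE 0.86 and adjusted p = 0.00110).

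The neighbouring krt12.5.S had 12950 normalised counts in the numerator arm and 36123 in the denominator arm at stage 17. At stage 14 it had 3525 in the numerator arm and 29576 in the denominator arm. The log2 fold change of krt12.5.S by the authors' deposited tables was -1.48 (with SE 0.43 and adjusted p = 0.0114) at stage 17 and -3.07 (with SE 0.40 and adjusted p = 9.45e-12) at stage 14. Both stages therefore passed the threshold for this copy. Its homeolog krt12.5.L had far fewer reads, with means of 447 and 189 normalised counts, and was called at neither stage, at 0.50 (with SE 0.50 and adjusted p = 0.645) and -1.69 (with SE 1.92 and adjusted p = 0.736) by the authors' deposited tables.

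For krt70, another type I keratin of embryonic epidermis, the .S copy carried most of the reads. It had 33420 normalised counts in the numerator arm and 76822 in the denominator arm at stage 17, and 16922 in the numerator arm and 80690 in the denominator arm at stage 14. The level of krt70.S was 2.30-fold lower in the numerator arm at stage 17 (95% interval 1.38 to 3.82) and 4.77-fold lower at stage 14 (3.26 to 6.98). In the authors' deposited tables its adjusted p-values were 0.0195 and 4.74e-13. The .L copy had the wider error, with an SE of 1.18 against 0.37 for krt70.S at stage 17 by the authors' deposited table. At stage 17 the change of krt70.L was -0.98 (adjusted p = 0.721), while the authors' deposited table for stage 14 gave -2.40 (SE 1.28) and no p-value, although its mean was 5809 normalised counts. The reason for the missing p-value is not given in the sources used here.

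Among the type II keratins, krt7.L is listed in RefSeq under the older symbol ck55. At stage 17 krt7.L had 27691 normalised counts in the numerator arm and 69312 in the denominator arm. At stage 14 it had 8871 in the numerator arm and 74281 in the denominator arm. The log2 fold change of krt7.L by the authors' deposited tables was -1.32 (with SE 0.36 and adjusted p = 0.00592) at stage 17 and -3.07 (with SE 0.33 and adjusted p = 3.32e-17) at stage 14, the 18th lowest p-value of the stage 14 table. The .S copy followed closely. For krt7.S the numerator arm had 21361 and the denominator arm 67528 normalised counts at stage 17, and 7674 and 69624 at stage 14. Its log2 fold change by the authors' deposited tables was -1.66 (with SE 0.42 and adjusted p = 0.00187) and -3.18 (with SE 0.40 and adjusted p = 5.39e-13). For both copies the numerator arm thus held less than the denominator arm at both stages, with the wider gap at stage 14.

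**Figure D2:**
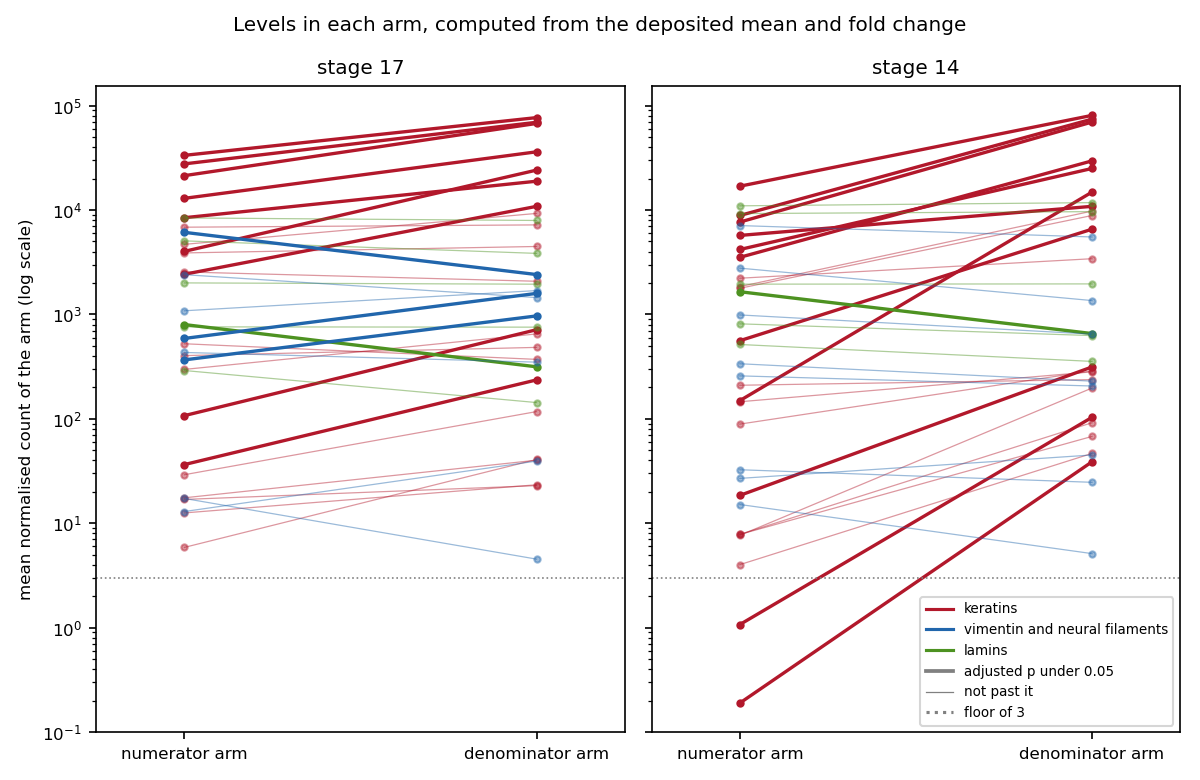
Mean normalised count of each arm (y axis, log scale), with the numerator arm left and the denominator arm right, for members with a mean of at least 10, at stage 17 in the left panel and stage 14 in the right panel. Thick lines mark adjusted p under 0.05 and the dotted line marks the floor of 3. Called keratin lines climb towards the denominator arm, steeply for krt12.4.S at stage 14 (149.5 against 14849), and lamin lines are mostly flat.

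Keratins 8 and 18, the pair of simple epithelia, were called in some copies and not in others. For krt8.1.S the level was 8446 normalised counts in the numerator arm and 18888 in the denominator arm at stage 17, and 4189 and 25020 at stage 14. The authors' deposited tables gave krt8.1.S a log2 fold change of -1.16 (with SE 0.38 and adjusted p = 0.0314) and -2.58 (with SE 0.41 and adjusted p = 2.99e-08). The .L copy was called at stage 14 only. It had 6851 normalised counts in the numerator arm and 7207 in the denominator arm at stage 17, where the log2 fold change by the authors' deposited table was -0.07 (with SE 0.32 and adjusted p = 0.941), and 5713 and 10850 at stage 14, where it was -0.93 (with SE 0.29 and adjusted p = 0.0198). The stage difference of krt8.1.L, 0.85 (SE 0.43), had an adjusted p-value of 0.575 over all genes, so the copy is not shown to differ between stages.

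Its partner krt18.1 was called in neither copy. At stage 17 the log2 fold changes of krt18.1.L and krt18.1.S by the authors' deposited table were 0.30 (with SE 0.39 and adjusted p = 0.749) and -0.21 (with SE 0.37 and adjusted p = 0.832). At stage 14 they were -0.62 (with SE 0.27 and adjusted p = 0.152) and -2.32 (with SE 0.92 and adjusted p = 0.106) by the authors' deposited table, both with an unadjusted p-value under 0.05. The stage 14 level of krt18.1.S was 1780 normalised counts in the numerator arm and 8864 in the denominator arm. This copy had the larger SE of the pair at that stage.

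A second keratin 8 and 18 pair, krt8.2 and krt18.3, lies together, per RefSeq (assembly Xenopus_laevis_v10.1), apart from the main keratin clusters. The calls in this pair were all in .S copies. For krt8.2.S the level was 107 normalised counts in the numerator arm and 714 in the denominator arm at stage 17, and 18.5 and 314 at stage 14. Its log2 fold change by the authors' deposited tables was -2.73 (with SE 0.53 and adjusted p = 1.55e-05) and -4.09 (with SE 0.75 and adjusted p = 3.41e-06). The neighbouring krt18.3.S was at the floor in the numerator arm at stage 14, at least 34.4-fold lower than the 103 normalised counts of the denominator arm (adjusted p = 2.62e-06 by the authors' deposited table). At stage 17 it had 29.2 normalised counts in the numerator arm and 117 in the denominator arm, with a log2 fold change of -2.01 (SE 0.72) and an adjusted p-value of 0.0520 by the authors' deposited table. The .L copies krt8.2.L and krt18.3.L were called at neither stage, and the nearest was krt18.3.L at stage 14, at -3.55 (with SE 1.252 and adjusted p = 0.0519) by the authors' deposited table. With genes under a mean of 10 left out before adjustment, krt18.3.S at stage 17 (0.0468) and krt18.3.L at stage 14 (0.0479) crossed the threshold.

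Among keratins with few reads, krt80 is a type II epithelial keratin and krt222 a keratin-like gene. For krt80.L the numerator arm was at the floor at stage 14, at least 12.9-fold lower than the 38.7 normalised counts of the denominator arm (adjusted p = 5.60e-04 by the authors' deposited table). At stage 17 it had 5.87 normalised counts in the numerator arm and 40.8 in the denominator arm, and an adjusted p-value of 0.174. The .S copy of krt80 was not called, at -0.90 (with SE 1.496 and adjusted p = 0.817) and -3.54 (with SE 1.46 and adjusted p = 0.123) by the authors' deposited tables. For krt222.S, the copy analysed here, the numerator arm had 36.5 and the denominator arm 236 normalised counts at stage 17, and 7.66 and 197 at stage 14. The log2 fold change of krt222.S by the authors' deposited tables was -2.69 (with SE 0.54 and adjusted p = 4.10e-05) at stage 17 and -4.69 (with SE 2.08 and adjusted p = 0.165) at stage 14. The stage 14 change was the larger in size but had the larger SE and missed the threshold.

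For krt19, a type I keratin, the authors' deposited tables gave adjusted p-values of 0.0716 for the .L copy and 0.830 for the .S copy at stage 17, and 0.920 and 0.353 at stage 14, with log2 fold changes from -1.13 to -0.18. The remaining keratins, krt9.1.L, krt12.2.L, krt12.2.S, krt17.L, krt50.S, krt51.L, krt61.L, krt61.S, krt78.1.L and krt78.6.L, had means of at most 6.21 normalised counts in either table. Of these, krt51.L at stage 17 and krt12.2.S at stage 14 had an adjusted p-value, and neither was called. The numerator arm of krt51.L was at the floor, at least 4.08-fold lower than the 12.3 normalised counts of the denominator arm (adjusted p = 0.226 by the authors' deposited table). For the others no difference was detectable at this depth.

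**Figure D3:**
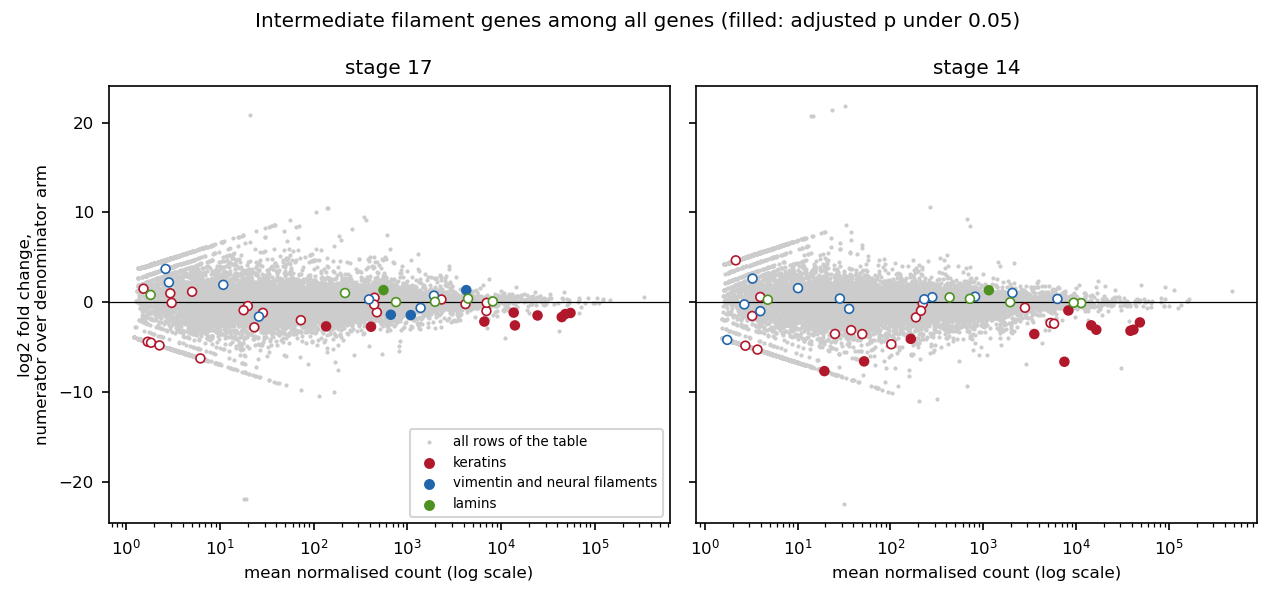
Log2 fold change (y axis, numerator over denominator arm) against mean normalised count (x axis, log scale) at stage 17 (left) and stage 14 (right), with all rows of each table in grey and intermediate filament genes coloured by family, filled where the adjusted p-value is under 0.05. All called keratins lie below 0, with krt70.S at means of 55121 and 48806 and krt7.L at 48501 and 41576 near the right end.

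Vimentin and the neural filament genes had calls in both directions at stage 17. Of 8 such genes with an adjusted p-value at stage 17 by the authors' deposited table, 3 were called, vim.L positive and nes.S and prph.S negative, where 9.96% of all genes were called. At stage 14, 0 of 9 were called by the authors' deposited table, where 8.68% of all genes were called, with 1 gene, nes.L, at an unadjusted p-value under 0.05. Vimentin is the filament protein of mesenchymal cells and of neural progenitors. The level of vim.L was 6115 normalised counts in the numerator arm and 2411 in the denominator arm at stage 17, 2.54-fold higher in the numerator arm (95% interval 1.62 to 3.98). Its log2 fold change by the authors' deposited tables was 1.34 (with SE 0.33 and adjusted p = 0.00162) at stage 17 and 0.36 (with SE 0.40 and adjusted p = 0.726) at stage 14, where the numerator arm had 7101 and the denominator arm 5523. The difference between stages for vim.L, 0.98 (SE 0.52), had an adjusted p-value of 0.621. The .S copy had means of 391 and 232 normalised counts and was not called, at 0.31 (with SE 0.38 and adjusted p = 0.729) and 0.32 (with SE 0.51 and adjusted p = 0.833) by the authors' deposited tables.

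Nestin, the large filament protein of neural progenitors, had copies with opposite signs at stage 17. The level of nes.S was 589 normalised counts in the numerator arm and 1591 in the denominator arm, and its log2 fold change by the authors' deposited table was -1.43 (with SE 0.43 and adjusted p = 0.0154). At the same stage nes.L had 2404 in the numerator arm and 1451 in the denominator arm, at 0.73 (with SE 0.36 and adjusted p = 0.211) by the authors' deposited table. The .S copy thus supplied 19.7% of nestin reads in the numerator arm and 52.3% in the denominator arm at stage 17. At stage 14 both copies were positive and uncalled, at 1.03 (with SE 0.41 and adjusted p = 0.107) for nes.L and 0.55 (with SE 0.61 and adjusted p = 0.721) for nes.S by the authors' deposited table. For nes.S the difference between stages was -1.99 (SE 0.75), with an adjusted p-value of 0.232 and an unadjusted one of 0.0078.

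Peripherin, a filament protein of peripheral neurons, was lower in the numerator arm at stage 17 in its .S copy. The level of prph.S was 367 normalised counts in the numerator arm and 968 in the denominator arm, and the log2 fold change by the authors' deposited table was -1.40 (with SE 0.48 and adjusted p = 0.0391). At stage 14 prph.S had a mean of only 36.0 normalised counts, against 667 at stage 17, and a change of -0.74 (with SE 1.004 and adjusted p = 0.793) by the authors' deposited tables. The .L copy was not called, at -0.64 (with SE 0.38 and adjusted p = 0.332) at stage 17 and 0.61 (with SE 0.39 and adjusted p = 0.419) at stage 14 by the authors' deposited tables.

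The neurofilament subunits of axons, nefl, nefm and nefh, and the internexin gene ina had at most 28.6 normalised counts as a mean in either table. Only nefl.L and nefm.L at both stages and nefm.S at stage 14 had an adjusted p-value. None of these was called, where 9.96% of all genes tested were called at stage 17 and 8.68% at stage 14. The other rows could not be called. The largest of them, nefl.L at stage 14 and nefm.L at stage 17, had log2 fold changes of 0.40 (with SE 0.97 and adjusted p = 0.913) and -1.60 (with SE 1.06 and adjusted p = 0.412) by the authors' deposited tables.

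Of the lamins, 1 of 6 tested at stage 17 and 1 of 7 tested at stage 14 were called, lmnb3.L in both cases. B-type lamins form the lamina of all nuclei, and lmnb3, the lamin of the egg and early embryo, is replaced by lmnb1 and lmnb2 as development proceeds. The level of lmnb3.L was 800 normalised counts in the numerator arm and 315 in the denominator arm at stage 17, and 1650 and 656 at stage 14. Its log2 fold change by the authors' deposited tables was 1.34 (with SE 0.43 and adjusted p = 0.0236) and 1.33 (with SE 0.30 and adjusted p = 3.73e-04), where 4.96% and 3.06% of all genes were called positive. The difference of 0.01 between the stages had a 95% interval of -1.01 to 1.04. The .S copy was positive and not called, at 1.02 (with SE 0.49 and adjusted p = 0.206) and 0.54 (with SE 0.36 and adjusted p = 0.452) by the authors' deposited tables.

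The widely expressed lamins lmnb1 and lmnb2 were called in neither copy at either stage, and their depth allows narrow limits. The log2 fold change of lmnb1.L by the authors' deposited tables was 0.08 (95% interval -0.41 to 0.57) at stage 17 and -0.10 (-0.64 to 0.43) at stage 14, with 8404 and 10976 normalised counts in the numerator arm and 7948 and 11777 in the denominator arm. For lmnb1.S the intervals were -0.11 to 0.90 at stage 17 and -0.56 to 0.43 at stage 14, and for lmnb2.S -0.42 to 0.50 and -0.61 to 0.59. Those of lmnb2.L were wider, at -0.81 to 0.83 and -0.31 to 1.05. Differences as large as the keratin medians lay outside all of these intervals. The A-type lamin lmna.L, a lamin of more differentiated cells, had means of 1.83 and 4.78 normalised counts, too few for a statement.

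Keratin differences were smaller at stage 17 than at stage 14 in most genes, but 1 of these stage differences passed a test of its own. Of 20 keratins tested in both tables, 19 had a more positive log2 fold change at stage 17, with a median difference of 1.67, and krt19.L was the exception at -0.95 (SE 0.63). Over all 16194 genes tested in both tables the median difference was 0.11. All 8 keratins called at both stages were closer to 0 at stage 17. The shares of all genes that were more positive, or closer to 0, at stage 17 were not computed. The difference itself was called for 1 of the 34 intermediate filament genes tested, where 1.51% of all 16194 genes were called, 1.30% more positive and 0.210% more negative at stage 17, and 12 had an unadjusted p-value under 0.05, where it was 8.58% of all genes. That gene was krt7.L, with a difference of 1.74 (with SE 0.49 and adjusted p = 0.0333 by the two-sided normal test with Benjamini-Hochberg adjustment over all genes). Next came krt12.4.S at 4.05 (with SE 1.22 and adjusted p = 0.0593) and krt18.3.S at 4.58 (with SE 1.39 and adjusted p = 0.0616). The last of these had an arm at the floor at stage 14. For krt7.S, the homeolog of the called gene, the difference was 1.52 (with SE 0.57 and adjusted p = 0.240). Batch and stage coincide, so values within batches could not be had.

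**Figure D4:**
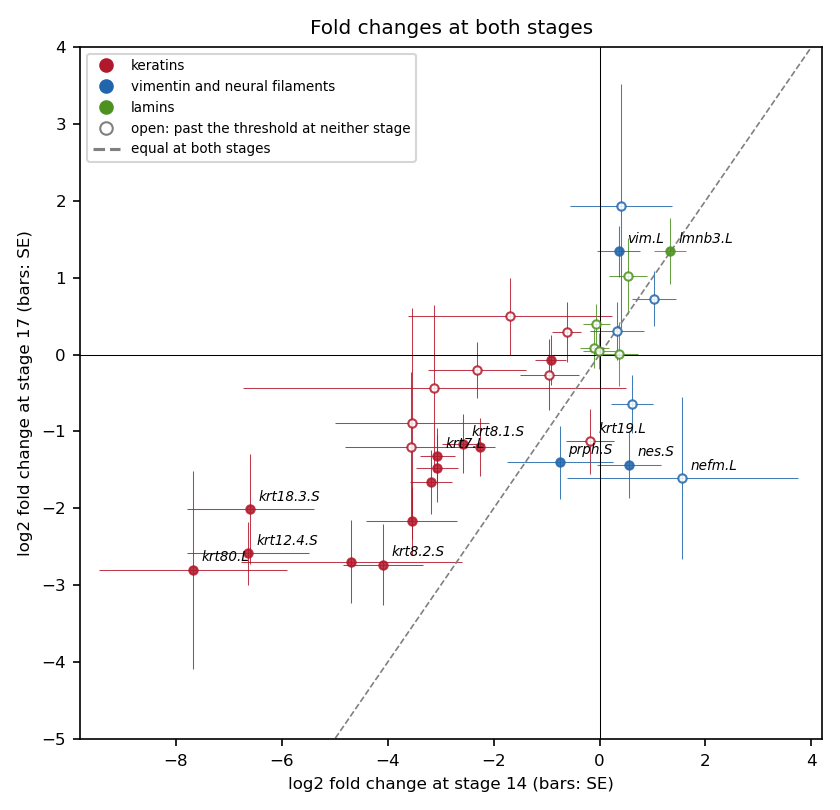
Log2 fold change at stage 17 (y axis) against stage 14 (x axis) for the 34 intermediate filament genes tested at both stages, with SE bars, filled where called at either stage. Of the 20 keratins, 19 lie above the dashed line of equal change, while lmnb3.L lies on it at 1.34 and 1.33.

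The gene copies gave a comparison within libraries. At stage 17, 8 of 12 keratin pairs with both copies in the table had the same sign, and at stage 14 all 11 had, against 66.5% and 62.9% of all pairs in the tables. The .S copy was the more negative in 8 of 12 pairs at stage 17 and 9 of 11 at stage 14, where it was the more negative in 48.9% and 52.1% of all pairs. The share of a pair's reads from the .S copy differed between the arms in some pairs. For krt12.4 the .S copy supplied 21.1% of the reads of the pair in the numerator arm and 69.4% in the denominator arm at stage 14, but 62.4% and 69.0% at stage 17. For krt18.1 the .S copy supplied 44.5% in the numerator arm and 72.2% in the denominator arm at stage 14, and for krt8.1 42.3% and 69.8%. The .S shares of krt7 at stage 14 were 46.4% in the numerator arm and 48.4% in the denominator arm, and those of krt70 were 90.2% and 89.2%. For krt80 they ran the other way, at 95.5% in the numerator arm and 54.6% in the denominator arm, with the numerator arm of krt80.L at the floor. The difference between copies was not tested, since both are measured in the same libraries and the tables do not give their covariance.

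**Figure D5:**
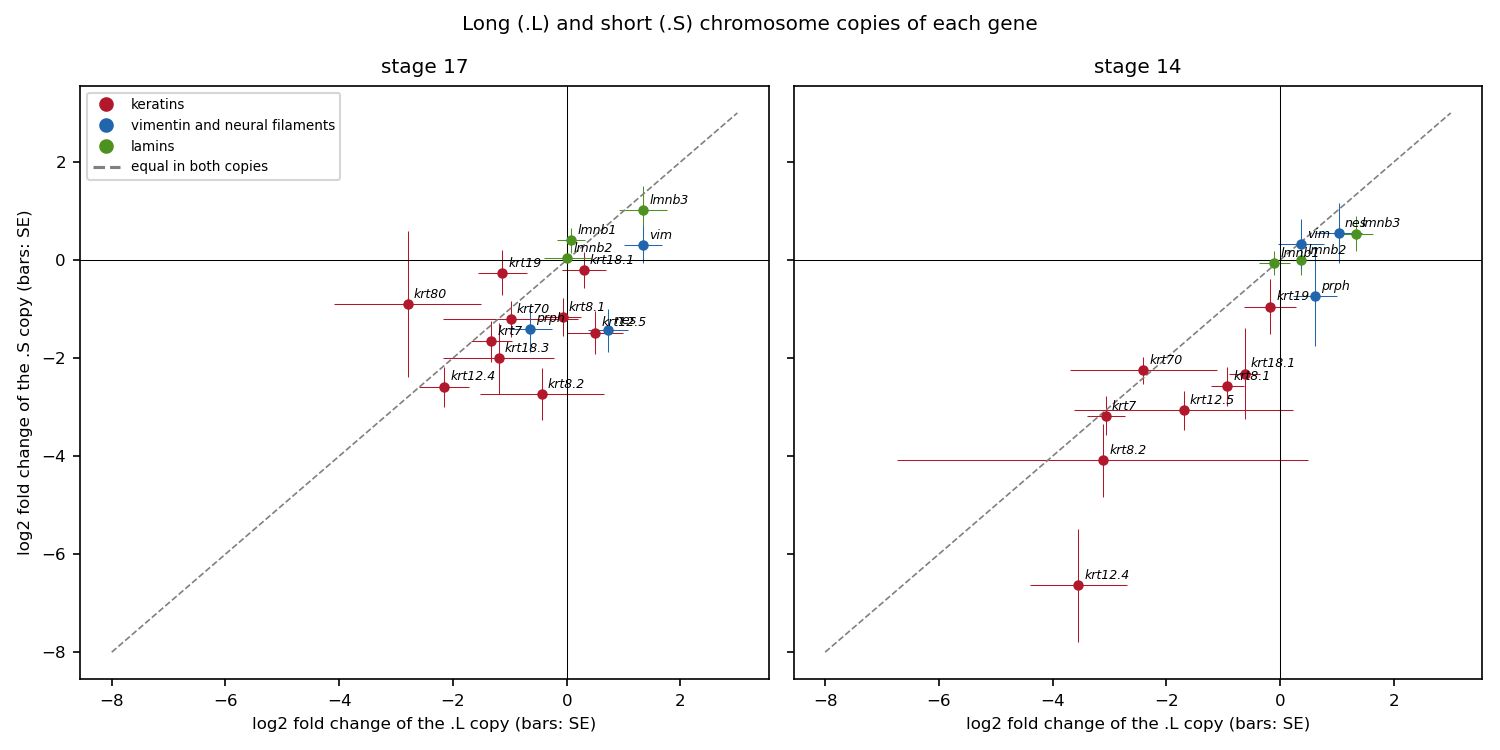
Log2 fold change of the .S copy (y axis) against the .L copy (x axis) for pairs with no arm at the floor, at stage 17 (left) and stage 14 (right), with SE bars. Points of krt8.1, krt18.1 and krt12.4 lie below the dashed line of equal change at stage 14, with krt12.4 at -3.55 in .L and -6.63 in .S, and krt7 near it, at -3.07 and -3.18.

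Keratin genes sit in tandem clusters. RefSeq (assembly Xenopus_laevis_v10.1) holds 71 keratin symbols with a digit, of which 31 had a row in the tables analysed here, and all 50 members matched a symbol there. The copies of a cluster on the long and the short chromosome were counted together. The clusters with krt7, krt8.1, krt18.1 and krt80 had 3 of 8 tested genes called negative at stage 17 and 5 of 8 at stage 14. In the clusters with krt70, krt12, krt19 and krt222 it was 5 of 10 and 4 of 9. In the krt8.2 and krt18.3 pairs it was 1 of 4 and 2 of 4. Of all genes tested, 5.0% at stage 17 and 5.62% at stage 14 were called negative. The stage 17 count of those pairs rests on krt8.2.S alone.

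The proteins that anchor keratins gave a mixed picture. Of all genes tested, 9.96% were called at stage 17 and 8.68% at stage 14, with 5.0% and 5.62% called negative. Among desmosome genes, 7 of 12 tested were called at stage 17, 4 negative and 3 positive, and 6 of 12 at stage 14, 3 in each direction. Desmoplakin, which ties keratins to desmosomes, was negative, with dsp.L at -1.64 (with SE 0.37 and adjusted p = 3.23e-04) at stage 17 and -1.93 (with SE 0.25 and adjusted p = 1.81e-12) at stage 14 by the authors' deposited tables. The desmosomal cadherin dsg2.S was positive, at 3.61 (with SE 0.95 and adjusted p = 0.00354) and 2.18 (with SE 0.65 and adjusted p = 0.0130) by the authors' deposited tables. Of 12 plakins and linkers, 6 were called at stage 17 and 4 at stage 14, all negative. They included the periplakin gene ppl.S at -2.74 (SE 0.34) and -4.82 (SE 0.96) by the authors' deposited tables, and evpl.L, encoding envoplakin, at -5.32 (SE 0.67) at stage 14. Hemidesmosome genes had 1 of 8 called at stage 17, itga6.L at 0.99 (with SE 0.34 and adjusted p = 0.0389 by the authors' deposited table), and 0 of 9 at stage 14, with 1 at an unadjusted p-value under 0.05. Nuclear envelope genes that work with lamins had 3 of 18 called at stage 17, 2 positive and 1 negative, and 0 of 18 at stage 14 by the authors' deposited table, with 2 at an unadjusted p-value under 0.05.

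Marker lists of epidermal cell types also held called genes, and their part in the keratin differences was not tested. Epidermal regulators had 10 of 31 genes called at stage 17, 4 negative and 6 positive, and 13 of 32 at stage 14, 11 negative and 2 positive. The shares called over all genes tested were 9.96% at stage 17 and 8.68% at stage 14. The summed level of the epidermal regulators was 23968 in the numerator arm and 33901 in the denominator arm at stage 17, and 21430 and 43233 at stage 14. The regulator grhl3.S was negative at both stages, at -2.09 (with SE 0.45 and adjusted p = 1.38e-04) and -2.62 (with SE 0.35 and adjusted p = 1.97e-11) by the authors' deposited tables. For tp63.L, a regulator of basal epidermis, the numerator arm was at the floor at stage 14, where the level was at least 26.3-fold below that of the other arm.

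Goblet cell markers had 5 of 10 genes called at stage 17 and 4 of 11 at stage 14, all negative. Their sums were 4755 in the numerator arm and 27880 in the denominator arm at stage 17 and 3024 and 11183 at stage 14. Of the denominator arm sums, itln1.L alone held 20690 at stage 17 and 5682 at stage 14. Ionocyte markers had 8 of 15 and 7 of 14 called, all negative, with sums of 349 in the numerator arm and 2536 in the denominator arm at stage 17, and 322 and 2865 in the same arms at stage 14. Multiciliated cell markers had 3 of 18 and 6 of 20 called, all negative, with sums of 18118 in the numerator arm and 20553 in the denominator arm at stage 17, and 16324 and 22362 in the same arms at stage 14. Most of these sums came from the row with the highest mean, 11693 at stage 17 and 12397 at stage 14. The median log2 fold change of the tested multiciliated cell markers was -1.26 at stage 17 and -2.27 at stage 14. The called goblet cell, ionocyte and multiciliated cell genes were thus all negative, as the called keratins were. Neural plate genes were called in the other direction, 18 of 24 at stage 17 and 7 of 25 at stage 14, all positive, with sums of 49698 in the numerator arm and 11056 in the denominator arm at stage 17 and 77553 and 49827 in the same arms at stage 14. Of the neural crest genes, 6 of 19 were called at stage 17 and 16 of 19 at stage 14, all negative. Over all genes tested, 5.0% were called negative at stage 17 and 5.62% at stage 14, and 4.96% and 3.06% were called positive. No marker was listed at 0 as a mean, and the goblet cell symbols itln2, otogl, tff3.7, muc5b and muc17 had no row in the tables analysed here. A row under a related symbol, otogl2.L, was not on the list and is not in the goblet cell sums. At stage 14 it had a mean of 30200 normalised counts and a log2 fold change of -7.28 by the authors' deposited table. Other lists also had symbols without a row at both stages, among them dsc2, dsg3, dsg4, lamb3, lemd2, slc6a8, shh and mylpf.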

How the data were processed

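Total RNA of neural crest tissue was sequenced from 12 samples, with unstranded libraries per the labels' protocols. Per the submitters' processing notes, STAR 2.7.3a and DESeq2 were used. Genome build, annotation and filters are not given in the sources used here. Each of the 2 tables holds the authors' comparison at 1 stage. Per the file headers, it gives a mean normalised count, a signal scaled between libraries by the authors, and a log2 fold change with its SE. The deposited score equals the log2 fold change over its SE in every row, and the authors also gave each p-value, raw and adjusted. That the arms are the miR-196a and mismatch morpholino was taken from the sample titles. Depth per library is unknown, and the precision is that of the SE, with a median of 0.47 at stage 17 and 0.52 at stage 14 over genes with an adjusted p-value. The stage 17 adjustment covered 22197 genes, more than the 16965 with an adjusted p-value analysed here.

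The test planned for counts was replaced by the authors' adjusted p-values. Arm levels follow from the mean count and the fold change for arms of 3 and 3. Intervals are the estimate plus or minus the normal 95% quantile of its SE. The stage difference was scaled by its SE, both stage SEs being added in quadrature, with a two-sided normal p-value and Benjamini-Hochberg adjustment over 16194 genes. This script was tested on simulated data. Python 3.11.15, pandas 2.3.3, numpy 2.4.6, scipy 1.17.1 and matplotlib 3.10.9 were used. The members, the 15 gene lists and the tests were chosen with earlier results of these data known. The rule for naming with values covered all called members and their homeologs, the 5 with the highest mean count per stage and all non-keratin members. Of a list, only the 3 called genes with the lowest p-value per stage could be named, and not all were. Neither fold change nor interval is printed for ina.S, nefh.S, nefl.S, nefm.S, lmna.L and krt8.2.L. For nefl.L, nefm.L and krt18.3.L a fold change is printed at 1 stage only. Values of krt18.1, krt19, krt51.L, sox10.S and otogl2.L, outside this rule, were added after they were seen. Alternatives were other thresholds, a recomputed adjustment, a mean count of at least 10, a minimum size of 1 for the log2 fold change, combined homeologs, centring and bounds at the floor. No sequence is printed.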

Additional observations from a re-analysis of the deposited data

Results flagged for a closer look

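The difference between the stages was past the threshold for krt7.L, with a log2 fold change 1.74 more positive at stage 17 than at stage 14 (with SE 0.49 and adjusted p = 0.0333 by the normal test over all genes). The log2 fold change was -1.32 at stage 17 and -3.07 at stage 14 by the authors' deposited tables. Stage and batch label coincide, so a batch effect and a stage effect cannot be told apart.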

How the results depend on the processing

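With an adjusted p threshold of 0.01, 7 members were called at stage 17 in place of 13, and the stage difference was called for 0 in place of 1 (12 had an unadjusted p-value under 0.05). At a threshold of 0.10 the stage difference was called for 3. The shares called over all genes at these other thresholds were not computed. With homeolog pairs combined, 3 of 26 genes were called at stage 17 (krt7, krt12.4 and krt222) and 6 of 26 at stage 14 (krt7, krt8.1, krt12.4, krt18.3, krt70 and krt80), where 6.22% and 5.75% of all genes so combined were called. There the change and the SE of a pair were the means of its copies' values, not weighted by reads. For krt12.5 at stage 14 the combined adjusted p-value was 0.296 by the normal test. For krt12.5.S alone it was 9.45e-12 by the authors' deposited table, with 99.0% of the pair's denominator arm reads. At stage 17 vim, nes, prph and lmnb3 were not called when combined (adjusted p = 0.172, 0.749, 0.153 and 0.113 by the normal test). At stage 14 lmnb3 was not called either (0.0735). The stage 14 calls of krt80 and krt18.3 used fitted values of krt80.L and krt18.3.S, whose numerator arms were at the floor. Their other copies, krt80.S and krt18.3.L, were not called at stage 14 (adjusted p = 0.123 and 0.0519 by the authors' deposited table). Only rows with a p-value entered, so krt70 at stage 14 was krt70.S alone, and krt222 was krt222.S alone. At stage 17 krt70 combined both copies, at -1.09 (with SE 0.78 and adjusted p = 0.544 by the normal test over all genes so combined). The calls of krt70 at the different stages are therefore not like for like. In the other 19 of 24 alternatives, counts stayed within 1.5 times the count, and medians kept their sign and stayed within the median SE of the members. That SE was 0.48 at stage 17 and 0.89 at stage 14, nearly as large as the medians of -0.54 and -0.94. The limit for medians was therefore wide. At stage 17 the median over members was -0.90 with members under a mean of 10 left out. Of 286 values of single members under alternatives, 275 kept their call and 7 lost it at the threshold of 0.01. A call was gained by 2 values at 0.10 and by 2 with genes under a mean of 10 left out. These alternatives changed only the threshold or the adjusted p-value. The log2 fold changes and stage differences of single members stayed the same, so their direction was not tested. With bounds in place of values where an arm was at the floor, the median over members was -0.25 at stage 17 and -0.72 at stage 14. No paired analysis was possible because the groups share no replicate number and the tables hold no values per sample. Leaving out single libraries and a second count test were not run for the same reason.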

Other observations

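The remaining marker lists gave the following counts, where 9.96% of all genes tested were called at stage 17 and 8.68% at stage 14. Notochord markers had 4 of 12 genes called at stage 17, 3 of them positive, and 5 of 15 at stage 14, 4 of them positive. Among them was not.L, a notochord transcription factor gene, at stage 14 at 3.57 (with SE 0.70 and adjusted p = 1.82e-05) by the authors' deposited table. Neuronal markers had 8 of 22 called at stage 17 and 1 of 17 at stage 14, all negative, among them neurod4.L at -1.60 (with SE 0.34 and adjusted p = 1.35e-04) at stage 17 by the authors' deposited table. Endoderm markers had 3 of 7 called at stage 17, 2 of them positive, and 1 of 8 at stage 14, which was negative. Muscle markers had 0 of 4 called at stage 17, with 1 at an unadjusted p-value under 0.05, and 1 of 3 at stage 14. Small secretory cell markers had 0 of 2 called at each stage by the authors' deposited tables, with 0 at stage 17 and 1 at stage 14 at an unadjusted p-value under 0.05.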
